A study of Mus musculus with 4 samples.

Results

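The corticotropin-releasing hormone (CRH) and urocortin system was described in RNA sequencing of brain tissue from the parasubthalamic nucleus, a small, mainly glutamatergic nucleus of the caudal hypothalamus beside the subthalamic nucleus. It was taken by gene symbol as 7 genes of the 25044 entries in the tables: the ligands Crh, Ucn, Ucn2 and Ucn3, the receptors Crhr1 and Crhr2, and the binding protein gene Crhbp. The 4 libraries, replicates 1 to 4, came from naive mice of the inbred strain C57BL/6 and formed 1 group. No transgene or treatment is named, and age was not given in the sources used here, nor was sex. No stressed animals were sequenced, so genes were compared with genes within libraries, and libraries with each other. The values were read as FPKM, fragments per kilobase of transcript scaled to library size, a unit named in no label or header.

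CRH is the peptide through which the hypothalamus starts the hormonal stress response, and in the brain it also acts as a transmitter in circuits of arousal and anxiety. CRH and urocortin 1 bind the receptor encoded by Crhr1, urocortin 1 also binds the receptor of Crhr2, and urocortins 2 and 3 are selective for the latter. Both receptors are class B G protein-coupled receptors that act mainly through Gs and cyclic AMP. CRH-binding protein is a secreted protein that holds CRH and urocortin 1 away from the receptors. Neurons of the parasubthalamic nucleus are known to include CRH-expressing cells, whereas the best known source of urocortin 1 is the peptidergic Edinger-Westphal nucleus of the midbrain.

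Stretches coding for the end of each of the 4 peptides are shown because the ligands are related genes whose levels are compared below. The letters show how far their reads could be confused. Each run holds the 38 codons before the glycine that provides the amide at the end of the peptide, followed by the codon of that glycine in capitals, from GENCODE M21 transcripts on GRCm38. The same length was cut for all 4 genes, so a run need not hold the whole peptide.
Crh, minus strand, chr3:19693919-19694035: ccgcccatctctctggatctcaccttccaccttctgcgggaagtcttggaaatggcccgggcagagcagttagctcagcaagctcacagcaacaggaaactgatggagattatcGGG
Ucn, minus strand, chr5:31138158-31138274: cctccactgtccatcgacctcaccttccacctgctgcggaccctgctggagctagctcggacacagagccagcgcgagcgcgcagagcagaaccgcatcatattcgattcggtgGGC
Ucn2, plus strand, chr9:108986388-108986504: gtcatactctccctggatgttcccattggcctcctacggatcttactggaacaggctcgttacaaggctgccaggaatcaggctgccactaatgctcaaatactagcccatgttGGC
Ucn3, minus strand, chr13:3941168-3941284: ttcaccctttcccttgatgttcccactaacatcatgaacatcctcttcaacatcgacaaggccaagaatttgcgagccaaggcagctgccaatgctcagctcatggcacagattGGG
Aligned without gaps over the 114 bases before the glycine codon, Crh and Ucn shared 53.5% of bases, and Ucn2 and Ucn3 likewise 53.5%. The other pairs shared 39.5% to 45.6%, and 26 bases were identical in all 4 genes. The longest exact run shared by the longest transcripts of any 2 of the 7 genes was 21 bases, between Crhr1 and Crhr2, and no other pair shared more than 14.

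Sums of markers listed for the labelled nucleus and for other regions and cell types differed between libraries. The share of each tissue in the pieces was not tested. All 12 markers listed for the parasubthalamic nucleus had a mean of 1 FPKM or more. They were led by the calretinin gene Calb2 at 178 FPKM, which also stands on the thalamic list. Their sum without Crh was 532, 372, 329 and 459 FPKM in replicates 1 to 4. Neurons, led by Snap25, summed to 2823 to 3039 FPKM. Midbrain dopamine markers summed to 1023 FPKM in replicate 2 and 534 to 560 elsewhere, and medial hypothalamic markers to 268 in replicate 2 and 38.8 to 79.1 elsewhere. Thalamic markers summed to 519 FPKM in replicate 3 and 188 to 277 elsewhere. Oligodendrocyte markers were also highest there, with a sum of 8589 FPKM against 5937 to 7966, and 7 of 9 peaked in that library. Their lowest sum was that of replicate 1. Caudal hindbrain and spinal markers summed to 26.4 FPKM in replicate 1, where all 10 were present, and to 0.361 or less elsewhere, where 9 of 10 were listed at 0.

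Ucn, the urocortin 1 precursor, had the highest mean FPKM of the system, above Crhbp and Crhr1 in replicates 2 to 4 and below both in replicate 1. By mean level the order was Ucn at 21.2 ± 12.3 FPKM (SD, n = 4), Crhbp at 8.89 ± 2.45, Crhr1 at 7.77 ± 0.91, Crh at 1.93 ± 0.358, Crhr2 at 0.897 ± 0.337, Ucn3 at 0.247 and Ucn2 at 0.0485. In bulk tissue, fewer cells of a type and less RNA per cell cannot be told apart. Tests covered the 17630 genes whose mean reached 0.1 FPKM, and among these Ucn stood at percentile 80.9, Crhbp at 62.4, Crhr1 at 59.4, Crh at 34.3 and Crhr2 at 24.7. Of the 7 genes, 6 passed that filter, and Ucn3 passed it only through replicate 4, without which its mean was 0.0324 FPKM. Ucn2 did not pass and was not tested.

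**Figure D1:**
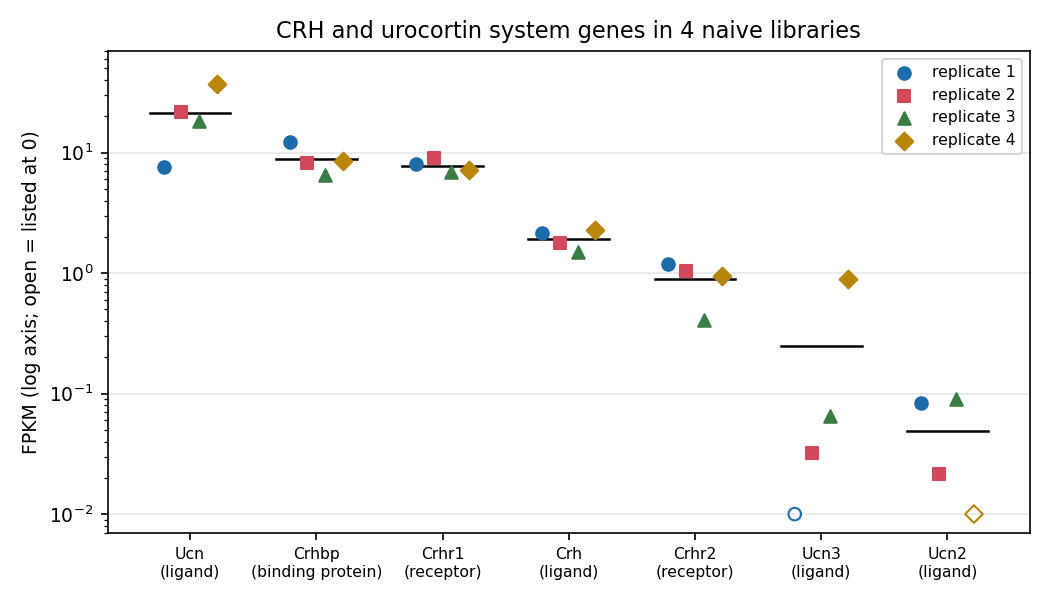
FPKM of the 7 genes in each library on a log axis, ordered by mean level, with a black line at the mean of the 4 libraries and open symbols for values listed at 0. Ucn spans 7.6 to 37.3 FPKM, Crhr1 stays between 6.96 and 8.95, and Ucn3 is near 0 except in replicate 4.

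Ucn (ENSMUSG00000038676, GRCm38 chromosome 5, 31138063 to 31138829, minus strand) was at 7.6, 21.7, 18.4 and 37.3 FPKM in replicates 1 to 4. Replicate 1 was low, replicate 4 was 4.9 times as high, and the other libraries lay between. In log2(FPKM + 0.1), the scale of all tests and of every SD in log2 units here, its SD was 0.95, higher than that of 99.8% of the 2361 genes within 0.5 log2 units of its mean level. No annotated gene overlapped it. Its coding neighbours were Trim54, 433 bases away, at 0.0567 to 0.305 FPKM, and Mpv17, which was level across libraries at 24.7 ± 1.47 FPKM. Ucn has a short transcript of 504 bases, so its level corresponded to about 81.6, 229, 187 and 391 fragments at the depth that the spacing of low values implies.

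Crh (ENSMUSG00000049796, chromosome 3, 19693401 to 19695396, minus strand), the founding ligand of the family, was at 2.15, 1.79, 1.5 and 2.29 FPKM in the same order. These values lay close together, with replicate 3 lowest and a ratio of highest to lowest of 1.53. About 40 to 62.9 fragments per library stood behind them. The ratio of Ucn to Crh was 3.53 in replicate 1 and 12.2, 12.2 and 16.3 in the others, so Ucn exceeded Crh in every library.

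Ucn3 (ENSMUSG00000044988, chromosome 13, 3940688 to 3945349), a ligand selective for the receptor of Crhr2, was listed at 0 in replicate 1 and at 0.0321, 0.0651 and 0.89 FPKM in replicates 2 to 4. Only in replicate 4 did it rest on more than about 2 fragments, with about 27.4. Ucn2 (ENSMUSG00000049699, chromosome 9, 108986010 to 108987164), the other such ligand, was at 0.0832, 0.0214 and 0.0896 FPKM in replicates 1 to 3 and listed at 0 in replicate 4. That is about 2 fragments or fewer in every library, so a level of Ucn2 was not measurable at this depth.

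Crhr1 (ENSMUSG00000018634, chromosome 11, 104132855 to 104175523) was at 7.99, 8.95, 6.96 and 7.15 FPKM. It was the steadiest member, with an SD of 0.16 log2 units and a coefficient of variation of 11.7%. That SD was still higher than that of 65.9% of the 2650 genes within 0.5 log2 units of its mean level. On the same measure Crh stood at 63.5%, Crhr2 at 88.6%, Crhbp at 95% and Ucn3 at 97.3%. Crhr2 (ENSMUSG00000003476, chromosome 6, 55090049 to 55133016) was at 1.18, 1.05, 0.411 and 0.948 FPKM and was low in replicate 3. The ratio of Crhr1 to Crhr2 was 6.78, 8.54, 16.9 and 7.55, and the receptors did not overlap in level. Crhbp (ENSMUSG00000021680, chromosome 13, 95431371 to 95444924) was at 12.3, 8.26, 6.47 and 8.53 FPKM, highest in replicate 1. Its ratio to Crhr1 was 1.54, 0.923, 0.929 and 1.19, on both sides of 1.

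Each gene was set against Crhr1, the shared receptor of CRH and urocortin 1, by limma on within-library differences with Benjamini-Hochberg adjustment. Of 5 other members tested, 1 was above Crhr1, 3 were below and 1 did not pass. Of all 17629 other genes 35.6% were above Crhr1 and 54.5% below, so these shares are near those of genes at large. Crh was lower than Crhr1 by 3.9-fold, with a log2 difference of -1.96 (SE 0.14, limma adjusted p = 0.000128), in 4 of 4 libraries, and by 7.30-fold when length was not corrected for. Crhr2 was lower at -3.06 (SE 0.22, limma adjusted p = 0.000121) in 4 of 4, and Ucn3 at -5.18 (SE 0.64, limma adjusted p = 0.000963) in 4 of 4. The size for Ucn3 rests on values at or near 0, so that adding 1 instead of 0.1 before the logarithm gave -2.86, adding 0.01 gave -6.73, and values not corrected for length gave -6.24.

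The excess of Ucn over Crhr1 was less firm than its mean shows. The log2 difference was 1.24 (SE 0.41, limma adjusted p = 0.0365), Ucn was the higher in 3 of 4 libraries, and in replicate 1 it lay level with Crhr1 at 0.951 of its value. Taking Ucn as the reference gene gave an adjusted p of 0.0888 in limma for the same pair, since the spread is then estimated from other differences. The call was also lost without replicate 2, 3 or 4 (1.23, 1.19 and 0.86, limma adjusted p = 0.0974, 0.118 and 0.0934). It was kept without replicate 1, the library where Ucn was lowest (1.67, limma adjusted p = 0.00939). FPKM divide by transcript length, and Crhr1 has a transcript of 2460 bases. With values multiplied back by length, which ranks genes roughly by fragments, the difference was -1.03 without passing, so the order of these genes depends on the correction for length.

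Against Crh, the 5 other members tested split into 3 above and 2 below, beside 60.3% of all genes above and 29.3% below. Ucn was 9.19-fold higher, at 3.20 (SE 0.41, limma adjusted p = 0.00117), Crhbp 4.36-fold higher, at 2.12 (SE 0.15, limma adjusted p = 0.000149), and Crhr1 higher by 1.96, or by 2.87 without the correction for length, each in 4 of 4 libraries. Ucn and Crh differed in the same direction, past the threshold, when any library was left out, at 2.94 to 3.68, and by 3.57-fold, at 1.84, when length was not corrected for. Crhr2 was 2.13-fold lower than Crh, at -1.09 (SE 0.20, limma adjusted p = 0.00496), in 4 of 4, but at -0.04 when length was not corrected for. Ucn3 was lower at -3.22 (SE 0.57, limma adjusted p = 0.00407) in 4 of 4, and at -1.28 with 1 in place of 0.1 added.

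**Figure D2:**
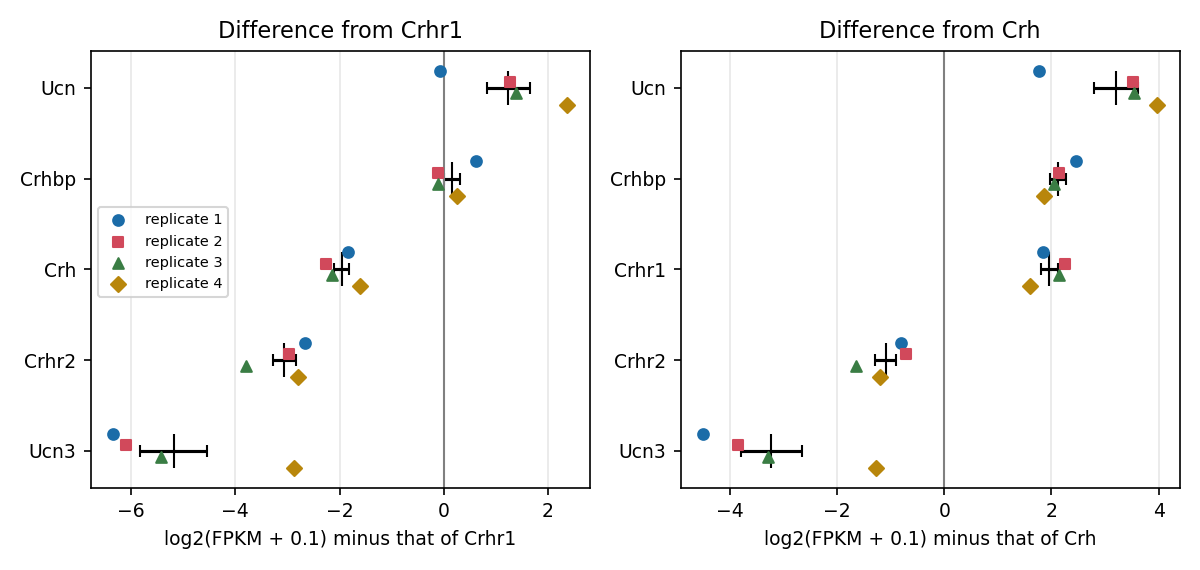
Difference in log2(FPKM + 0.1) of each tested member from Crhr1 (left) and from Crh (right), with coloured symbols for the 4 libraries and a black bar for the mean with its limma SE. Ucn lies above Crh in every library but level with Crhr1 in replicate 1, and Crhbp lies on both sides of Crhr1.

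Next to each other in the order of level, Ucn and Crhbp did not differ beyond their spread (Crhbp minus Ucn -1.08, SE 0.58, limma adjusted p = 0.165), where 55.4% of genes were below Ucn. In replicate 1 Crhbp was the higher, and without replicate 1 the difference passed at -1.66 (limma adjusted p = 0.0136). Crhbp and Crhr1 did not differ beyond their spread either (Crhr1 minus Crhbp -0.16, SE 0.21, limma adjusted p = 0.517), where 52.1% of genes were below Crhbp. Crhr1 above Crh and Crh above Crhr2 passed, as given above. Ucn3 below Crhr2 passed at -2.13 (SE 0.68, limma adjusted p = 0.0368), where 14.7% of genes were below Crhr2, but not with Ucn3 as the reference (limma adjusted p = 0.0630) nor without replicate 1, 2 or 3 (-1.61, -1.80 and -2.29). It was -0.64 with 1 in place of 0.1 added and -3.33 when length was not corrected for.

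Ucn ranked the libraries as part of the list for its best known source did. Without Ucn, the 6 other genes listed for the peptidergic Edinger-Westphal nucleus summed to 290, 370, 355 and 453 FPKM. None of them was at 0 in any library. That sum ranks the libraries as Ucn does, but only with Cartpt, the precursor of CART peptides, in it. Cartpt was at 86.5, 175, 113 and 238 FPKM. Postn, the periostin gene, was at 1.36, 1.7, 1.53 and 2.35, and both followed the order of Ucn. The cholecystokinin gene Cck, the substance P precursor Tac1, the nesfatin precursor Nucb2 and Igfbp2 did not follow that order. These 6 other genes are also expressed in the hypothalamus or other parts of the brain. The part of midbrain tissue in the level of Ucn was not tested. The dopamine markers of the same midbrain peaked in replicate 2, where Ucn was at 21.7 FPKM, not in replicate 4, where it was highest. Replicate 4 also had the highest sum of lateral hypothalamic markers, 805 FPKM against 196 to 576, through Pmch at 429 FPKM and Cartpt, which stands on both lists, while the other 6 markers peaked in other libraries. It had the highest sum of choroid plexus and ependymal markers as well, 65.1 against 14.6 to 15.4, through Ttr at 49.7 FPKM. Ucn3 was highest in that library too, and their part in either level was not tested.

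**Figure D3:**
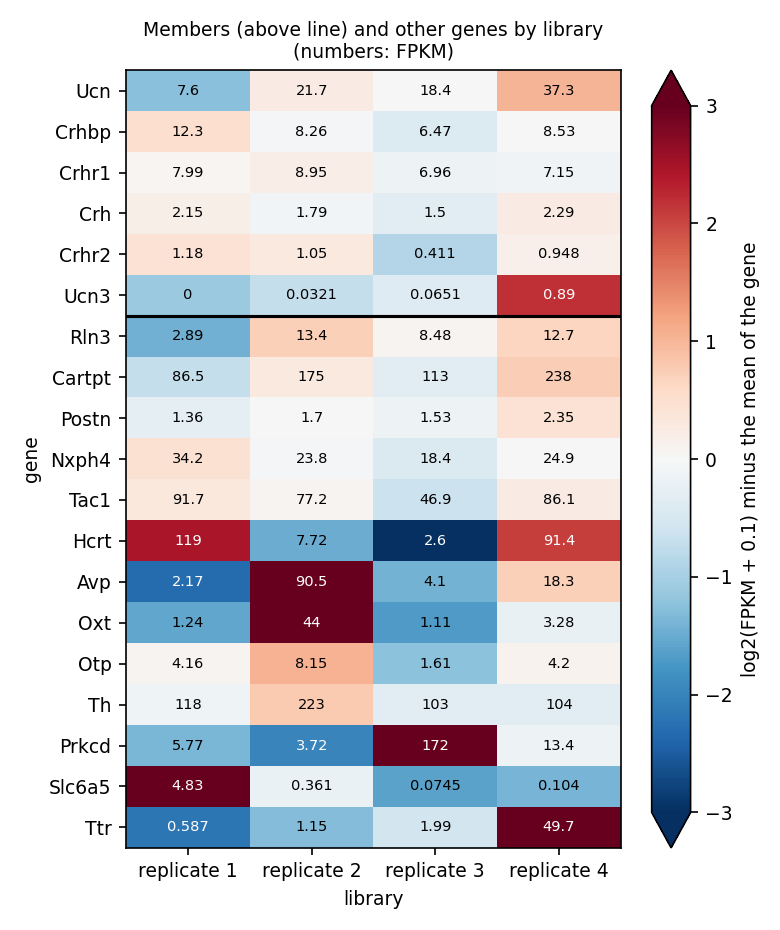
Deviation of each gene in each library from its own mean in log2(FPKM + 0.1), in colour, with the FPKM printed in each cell, for the 6 members tested (above the line) and for marker and other genes named in the text. Ucn shares its low value in replicate 1 with Rln3 and Cartpt, and Crh shows no high value in replicate 2, where Avp and Oxt are highest.

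The genes whose centred log2 levels over the 4 libraries lay nearest to Ucn, among 12544 others of 1 FPKM or more, were Zfp969 at a root mean square distance of 0.286 log2 units, 9430038I01Rik at 0.314 and Rln3, the relaxin 3 precursor, at 0.319. Rln3 was at 2.89, 13.4, 8.48 and 12.7 FPKM, low in replicate 1 like Ucn. Cartpt ranked 6 at 0.349 and Postn 112 at 0.575. With 4 libraries such distances are a description, and no gene lay within 0.1 of Ucn.

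Crh did not follow the hormones of the medial hypothalamus. In replicate 2, where vasopressin (Avp) was at 90.5 FPKM against 2.17 to 18.3 and oxytocin (Oxt) at 44 FPKM against 1.11 to 3.28, Crh was at 1.79 FPKM, below replicates 1 and 4. Otp, a transcription factor needed for hypothalamic neuroendocrine neurons, was at 4.16, 8.15, 1.61 and 4.2 FPKM, and Sim1, which acts with Arnt2 in the same lineage, at 1.53, 0.709, 0.535 and 0.928. Neither peaked where Crh did. Sim1, like Crh, was nonetheless higher in replicates 1 and 4 than in replicate 2, and Crh, Sim1 and Otp were all lowest in replicate 3. Nearest to Crh were Pcdh11x at 0.0078 log2 units, Trim47 at 0.0242 and Zfp882 at 0.0251, with 176 genes within 0.1.

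Crh, Crhbp, Crhr1 and Crhr2 were each lowest in replicate 3, the library in which thalamic and oligodendrocyte marker sums were highest and those of the parasubthalamic and lateral hypothalamic lists lowest. The part of tissue composition in these low values was not tested. Crhbp ranked the libraries as the sum of parasubthalamic markers did, highest in replicate 1 and lowest in replicate 3. Replicate 1 also had the highest sum of caudal hindbrain and spinal markers, 26.4 FPKM against 0.361 or less elsewhere. The part of either tissue in the level of Crhbp was not tested. The genes nearest to Crhbp were Rbpms2 at 0.0178 log2 units, Nxph4, a neurexophilin gene, at 0.0252 and Arxes1 at 0.0437, with 33 genes within 0.1. Nxph4 was at 34.2, 23.8, 18.4 and 24.9 FPKM, nearly in proportion to Crhbp. Nearest to Crhr1 were Zfp518b at 0.00859, Speg at 0.0114 and Lbh at 0.0119, among 1271 genes within 0.1.

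Among 15 class B receptor genes, Crhr1 ranked 2 by mean and in each of the 4 libraries. Adcyap1r1, the PACAP receptor, was the only one of 11 others tested that was above it, 5.12-fold (log2 difference 2.36, SE 0.09, limma adjusted p = 1.92e-05) in 4 of 4 libraries. Pth1r, a receptor of parathyroid hormone and its related peptide, at 6.40 ± 0.585 FPKM, did not pass at -0.27 (limma adjusted p = 0.118), though it was lower in 4 of 4. Pth1r and Crhr1 were all but level in replicate 3, at 6.94 and 6.96 FPKM. The other 9, Crhr2 among them, were below Crhr1. Over all genes 35.6% were above Crhr1 and 54.5% below. The median difference of the list was -3.06 beside -0.66 over all genes. Among the 9 receptors below, the calcitonin receptor gene Calcr was at -1.53 (-0.96 without the correction for length, not passing). The VIP and PACAP receptor gene Vipr2 was at -2.13 and Calcrl, which pairs with accessory proteins to bind CGRP, at -2.31. Crhr2 ranked 7 by mean and between 6 and 9 by library.

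**Figure D4:**
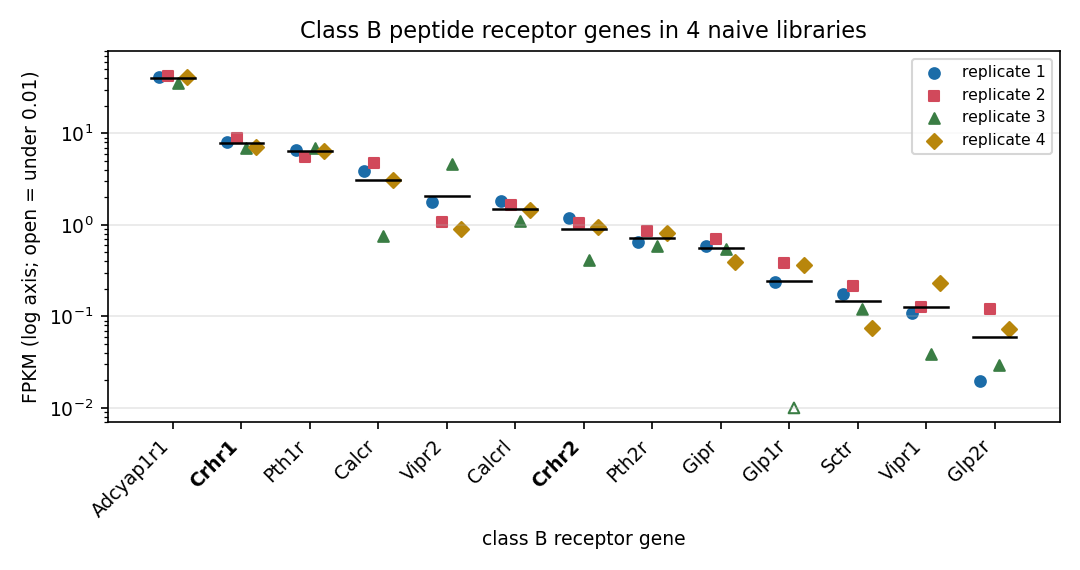
FPKM of class B receptor genes in each library on a log axis, with a black line at the mean and open symbols for values under 0.01. Gcgr and Ghrhr, at 0.0281 FPKM or less in every library, are left out. Crhr1 is the next below Adcyap1r1 and keeps its rank in all 4 libraries, though Pth1r is all but level with it in replicate 3. Crhr2 lies between 0.411 and 1.18 FPKM.

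Among 57 neuropeptide precursor genes Ucn ranked 13 by mean, and between 9 and 19 by library, while Crh ranked 33, Ucn3 49 and Ucn2 53. Of 50 other precursors tested against Crh by limma, 25 were above, 13 below and 12 did not pass. Over all genes 60.3% were above Crh and 29.3% below. The median difference of the precursors was 1.03 beside 1.30 over all genes. The 3 most abundant were Pmch, the melanin-concentrating hormone precursor, 105-fold above Crh (limma adjusted p = 0.000120), Cartpt, 70.7-fold (limma adjusted p = 3.83e-05), and Sst, the somatostatin gene, 55.6-fold (limma adjusted p = 2.86e-05), each in 4 of 4 libraries. Without the correction for length these were 60.3-fold, 67.2-fold and 30.8-fold.

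Most signalling genes downstream of the receptors were more abundant than Crhr1 itself. Of 49 tested, 33 were above Crhr1, 10 below and 6 did not pass, beside 35.6% of all genes above and 54.5% below. The median difference was 1.38 beside -0.66 over all genes. Without the correction for length, which moved the median of all genes to 0.29, 41 were above and 2 below, with a median of 2.27. The 3 most abundant were Gnas, the Gs alpha subunit through which the receptors raise cyclic AMP, at 6.95 above Crhr1 (SE 0.09), and the regulatory subunits of protein kinase A Prkar1b at 5.30 and Prkar1a at 5.19 (limma adjusted p = 1.18e-05 for each, 4 of 4 libraries). The beta-arrestin genes Arrb1 and Arrb2, whose products end receptor signalling, were at 1.85 and 1.32, and the receptor kinase Grk2 at 2.81, all passing. Of the transcription factors at the end of the cyclic AMP path, Creb1 was below Crhr1 at -0.77 (SE 0.10, limma adjusted p = 0.00101) but above it at 0.98, also passing, when length was not corrected for, and Crem did not pass at 0.12. Of the adenylyl cyclases, which make cyclic AMP, Adcy2, Adcy3 and Adcy5 were above Crhr1 with and without that correction. Adcy6, Adcy7, Adcy8 and Adcy9 were below it per length, at -0.39, -1.51, -0.33 and -1.71. Without the correction for length only Adcy9 remained below, at -0.73, Adcy7 did not pass at -0.27, and Adcy6 and Adcy8 were above at 0.89 and 1.17. Adcy1 did not pass per length at 0.03 and was above without the correction, at 2.33.

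**Figure D5:**
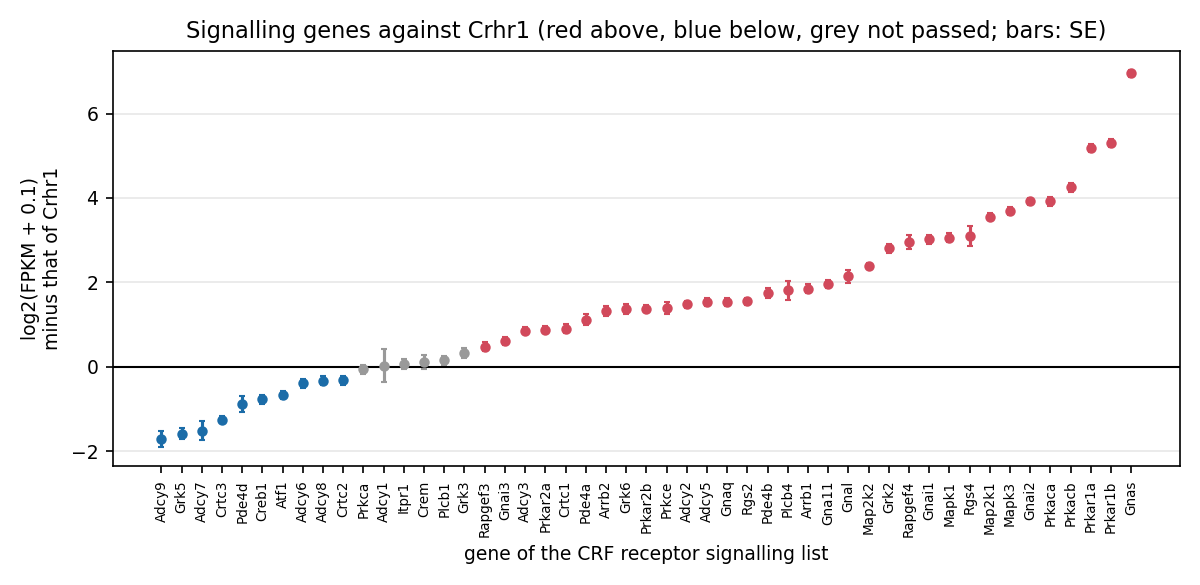
Difference in log2(FPKM + 0.1) from Crhr1 for 49 genes of the receptor signalling list, ordered by size, with limma SE as bars and colours for genes above (33), below (10) or not passing (6). Gnas stands highest at 6.95 and Adcy9 lowest at -1.71.

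Of 15 genes tested from a mixed list of the pituitary-adrenal axis and of peptide processing, 10 were above Crhr1, 2 below and 3 did not pass, with a median difference of 1.06 beside -0.66 over all genes, of which 35.6% were above and 54.5% below. The carboxypeptidase gene Cpe at 7.35, the convertase inhibitor gene Pcsk1n at 5.15 and Scg5, a chaperone of convertase 2, at 4.77 were the most abundant of the list (limma adjusted p = 1.18e-05 for each). Pcsk1 and Pcsk2, the convertases that cut prohormones, were at 0.47 and 2.16, and Pam, which makes the amide at the end of the peptides, at 2.92, all passing. The glucocorticoid receptor gene Nr3c1 was above Crhr1 at 0.58 (SE 0.12, limma adjusted p = 0.00694), and the mineralocorticoid receptor gene Nr3c2 below it at -0.84 (SE 0.13, limma adjusted p = 0.00251), or above it at 0.41 (limma adjusted p = 0.0338) when length was not corrected for. Mc2r, the adrenal ACTH receptor, was listed at 0 in all 4 libraries. Of 16 transcription factors linked to CRH neurons or to the Crh gene, 3 were above Crhr1, 11 below and 2 did not pass, with a median difference of -0.89, near the -0.66 of all genes. Without the correction for length 5 were above and 6 below. Arnt2 was highest at 2.45, followed by Crtc1, a CREB coactivator, at 0.90 and Nr4a2 at 0.54.

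The promoter of Ucn is shown because Ucn had the highest mean FPKM and, of the members at 1 FPKM or more, varied most. The run holds the 250 bases before the start of the gene in RefSeq on GRCm38.p6, minus strand, with the cyclic AMP response element TGACGTCA in capitals.
Ucn, chr5:31138896-31139145: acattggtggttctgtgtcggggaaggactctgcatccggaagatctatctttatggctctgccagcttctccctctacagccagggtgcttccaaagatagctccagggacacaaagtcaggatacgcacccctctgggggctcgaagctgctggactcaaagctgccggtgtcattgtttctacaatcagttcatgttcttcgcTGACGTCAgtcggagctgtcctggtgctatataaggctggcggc
The motif, which reads the same on both strands, ended 36 bases before the start. It was found in 508 of 32851 promoters of that length, 1.55%. Of the 5 members with an entry, Ucn, Ucn3, Crhr1, Crhr2 and Crhbp, only Ucn held these letters in the window. Crh and Ucn2 had no entry and were not searched, so whether they hold the motif is not known here.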

How the data were processed

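The deposited tables give 1 value per gene and library. The authors name GRCm38 as the build, per the submitters' processing notes. TRIzol RNA and an Illumina mRNA kit were used, per the labels' protocols. The aligner was not given in the sources used here, nor were the quantification program and strandedness. Deposited values were read as FPKM from their behaviour, since they are not whole and their totals, 428612 to 442836, differ between libraries. The spacing of low values implied 20200000 to 21300000 fragments per library, but 13.7% to 28.8% of those values fell within 0.05 of a whole number. No reads were therefore recovered, and fragment numbers are approximate. The share was lowest in replicate 4, at 13.7%, little above that of values spread evenly. Fragment numbers given for replicate 4, those of Ucn and Ucn3 among them, are thus the least firm.

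Symbols came from GENCODE M21, which matched 22022 of 22036 Ensembl identifiers, and 3008 other loci had none. Genes whose mean reached 0.1 FPKM were tested on log2(FPKM + 0.1), on which low genes differ less than in FPKM. In each library a reference gene was subtracted from every other gene, and limma 3.58.1 (R 4.3.3) fitted an intercept to these differences, two-sided, adjusted by Benjamini-Hochberg over 17629 genes, at a threshold of 0.05. All differences share the deviation of the reference gene, so the prior degrees of freedom were held at no more than 1.63, the value from fitting gene levels alone. The test was checked on simulated data. Apart from their numbers, nothing in the labels marks the replicates as different animals, so the p-values cover only the spread among these samples, which may be technical. Replicate 3 was taken from its title, as its column is headed with a letter.

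The members and lists were chosen with earlier results of these data known. Named genes are the members, the 3 most abundant of each pathway list, class B receptors of 1 FPKM or more, the 3 genes nearest in pattern to each member of 1 FPKM or more and leading markers. Other genes named were chosen after their values were seen. Alternatives of the pseudocount, filter, scaling, length correction, prior and library were tried. Python 3.11.15, pandas 2.3.3, biopython 1.88 and matplotlib 3.10.9 were used.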

Additional observations from a re-analysis of the deposited data

Results flagged for a closer look

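Of the 7 member levels examined for a single library far from the others by Dixon's test for 4 samples, 1 stood apart, where chance flags about 5% of groups. Ucn3 was at 0.89 FPKM in replicate 4, about 27.4 fragments, against 0 to 0.0651 FPKM in the other libraries. Among markers of other regions, the cortical genes Tbr1 and Emx1 were also highest in replicate 4, at 0.909 FPKM against 0.0949 to 0.155 and at 0.577 against 0.0299 to 0.184. Their part in the level of Ucn3 was not tested.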

How the results depend on the processing

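Across the differences and counts, 341 of 376 values under alternatives kept their direction and their side of the threshold, or, for counts, stayed within 1.5 times. Without the correction for length, Ucn minus Crhr1 turned to -1.03, Crhbp minus Crhr1 to -0.30, Crhbp minus Ucn to 0.73 and Crhr1 minus Crhbp to 0.30, none passing, and Crhr2 minus Crh was -0.04. Ucn minus Crh was 1.84 there and Crh minus Crhr1 -2.87, both still passing. Counts there were 0 members above Crhr1, 1 member below Crh, 2 signalling genes, 1 axis gene and 6 transcription factors below Crhr1, and 5 transcription factors above it. With no filter, 0 members were above Crhr1 and 4 axis genes below it, and Ucn3 minus Crhr2 no longer passed at -2.13, nor did it with 0.01 added (-3.53) or with Ucn3 as the reference (-2.13). With a filter at 1 FPKM, which removes low genes by construction, 1 member, 1 axis gene, 6 transcription factors and 3 class B receptors were below Crhr1, and 0 members and 2 precursors below Crh. Crhbp minus Ucn passed when the limma prior had no limit (-1.08). Leaving out single libraries gave -1.66 to -0.73 for Crhbp minus Ucn, -2.81 to -1.61 for Ucn3 minus Crhr2, and 0 to 1 members above Crhr1. Other causes were not tested. A limit of 3.78 prior degrees of freedom, from a trended fit chosen after seeing the data, turned 1 call among members: Crhr2 against Ucn3 as the reference passed (limma adjusted p = 0.0421). Depth limits Ucn2 and Ucn3. No paired analysis was possible because there is 1 group and so no other group to pair it with. The differences between genes were taken within each library.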
